A study of Schizosaccharomyces pombe with 4 samples.

Results

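The tiling array used here carries letters at the end of some probe names, and 679 of its 41551 probes have a letter f or m and lie in the chromosome arms of fission yeast (Schizosaccharomyces pombe). They were chosen by name and position alone. The name had to end in f, Rf, m or Rm. The probe had to lie over 100 kb from the first and last probe of its chromosome and outside a window around each centromere, which was 3650000 to 3899999 on chromosome 1, 1500000 to 1749999 on chromosome 2 and 970000 to 1239999 on chromosome 3. The letter f marked 408 of them (204 f, 204 Rf) and the letter m 271 (147 m, 124 Rm). They are called f probes and m probes below. The files do not explain the letters, and R alone, found on about as many probes as no letter at all, was not used. The other 36353 arm probes, with neither f nor m, served as the comparison, and 829 further f or m probes lay outside the arms.

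The strains shared cdc25-22, a heat-sensitive allele of the phosphatase needed to enter mitosis, with Pnmt1-TK, a viral thymidine kinase under a yeast promoter, and Padh1-hENT, a human nucleoside transporter, which together let them take up bromodeoxyuridine (BrdU), a thymidine analogue. They were arrested at 37 °C for 4 h and 15 min and released at 26 °C into 10 mM hydroxyurea, which slows replication forks by depleting deoxynucleotides, with 200 µM BrdU, and were sampled at 120 min. There were 2 groups of 2 arrays, wild type and a group labelled fft3Δ, for a deletion of the SNF2-family chromatin remodeller Fft3, and each group had an array in series 1 and an array in series 2. Immunoprecipitated BrdU-labelled DNA was hybridised in Cy5 and input DNA from whole cells in Cy3, on the same array and without a dye swap. A deletion was looked for in the input: fft3 is 3611 bp long and would span 12 adjacent probes, and the lowest median difference that any run of 12 probes reached in both series was -0.28 on the log2 scale, so the group is called by its label throughout.

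A genome sequence that occurs in several places gives a microarray probe a mixed signal, because every copy hybridises to it. Such a probe is brighter than a single-copy probe in total DNA, and its BrdU ratio is an average over all copies rather than a reading of the place it is named for. In fission yeast the chromosome arms hold repeated DNA of several kinds: Tf2 retrotransposons, which copy themselves through RNA, the solo long terminal repeats (LTRs) that such elements leave behind, and the wtf genes, a family of selfish spore killers that cluster on chromosome 3. The comparison with probes nearby therefore asks whether the f and m probes behave as such DNA would. In cells held in hydroxyurea, a high ratio of immunoprecipitate to input marks DNA that replicated early, close to an active origin.

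Per-probe values were the log2 input and the log2 ratio of Cy5 to Cy3, each centred on the median of its array. The local excess of a probe is its own value minus the median of the probes with neither f nor m within 5 kb on either side. An excess needed 5 or more such neighbours, which 674 members had (all 408 f probes and 266 m probes). All 679 members were well above background in both channels on all 4 arrays, and none was saturated. Wild-type array 2 stood apart. The interquartile range of its input over all probes was 0.57, against 1.18 to 1.26 elsewhere, it correlated with their inputs at 0.605 to 0.68 against 0.931 to 0.987 among the others, and its input was 216 times the local background against 17.3 to 55.3 times. It also had 617 spots flagged as non-uniform, against 4 to 7 elsewhere. These included 13.3% of the m probes, 4.41% of the f probes and 1.21% of the comparison probes, and flagged spots were left out. The precision is limited by the 2 arrays available per group. Whether series 1 and series 2 came from separate cultures is not stated in the labels, so p-values measure only the spread between these arrays.

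The marked probes were not spread evenly. They made up 1.54% of the arm probes of chromosome 1 (261 probes), 1.36% of chromosome 2 (183) and 3.58% of chromosome 3 (235). The m probes differed most between arms, from 0.226% on the right arm of chromosome 2 to 2.02% on the left arm of chromosome 3. Counted over whole chromosomes, f and m probes came to 3.13%, 2.78% and 6.5% of the probes of chromosomes 1, 2 and 3. In the reference assembly ASM294v3, 3.12%, 3.6% and 6.73% of all stretches of 60 bases, the length of a probe, occurred at least 2 times without a mismatch on either strand. The shares are of like size and both are highest on chromosome 3. Chromosomes 1 and 2 came in opposite order, with marked probes denser on chromosome 1 and repeated stretches on chromosome 2. These whole-chromosome counts include the 829 marked probes outside the arms. The reference annotation lists 13 Tf2 genes (8, 3 and 2 on chromosomes 1, 2 and 3; median length 4002 bp), 25 wtf genes (1, 1 and 23; median 1787 bp) and 238 LTRs (90, 69 and 79; median 347 bp). The array's build is not named and its positions run past the end of the reference, so no marked probe was placed on any of these elements, and every position below is a position of the array design, with 1 as the first base.

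Marked probes also lay in groups. With a gap of at most 1 kb between neighbours, the 679 members fell into 147 lone probes, 41 pairs and 75 runs of 3 or more that held 450 of them. Of these runs, 38 held f probes alone, 14 held m probes alone and 23 were mixed. The 12 longest runs had 10 to 19 members each and 154 in all.

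The m probes were much brighter than their surroundings in the input, and the f probes moderately so. The median local input excess of the m probes was 2.60 on wild-type array 1, 1.02 on wild-type array 2, 2.65 on labelled fft3Δ array 1 and 2.25 on labelled fft3Δ array 2, on the log2 scale. As folds these are 6.06, 2.03, 6.29 and 4.75. The f probes had medians of 0.64, 0.26, 0.67 and 0.65 on the same arrays. The comparison probes had medians within 0.0033 of 0 on every array. All 4 arrays gave the same order, m above f above the rest, and wild-type array 2, whose input range was narrow, gave the lowest value for both kinds. The interquartile range of the mean over arrays ran from 1.47 to 2.70 for m, from -0.12 to 1.095 for f and from -0.49 to 0.45 for the comparison probes, so most m probes lay above the bulk of their surroundings while f probes overlapped it widely. A mean excess over 1, which is more than a doubling of input, was found for 85.0% of m probes, 28.4% of f probes and 6.45% of comparison probes.

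Tested probe by probe against 0 (limma, all 40717 chromosome probes with neighbours, Benjamini-Hochberg adjusted p under 0.05), the local input excess was called higher for 456 of 674 members (67.7%) and lower for 70 (10.4%). Over all chromosome probes the calls were 24.2% higher and 23.9% lower. Against this background the m probes stood at 240 of 266 called higher (90.2%) and 10 lower, and the f probes at 216 of 408 higher (52.9%) and 60 lower (14.7%). Calls that were higher and over 1 came to 227 m probes and 116 f probes, together 50.9% of the members tested, against 7.59% of all chromosome probes. An excess above 0 on every array that measured the probe was found for 241 of 266 m probes and 219 of 408 f probes. Comparison probes were not counted under this rule, so it does not show how far either share exceeds theirs. A probe flagged on wild-type array 2 also had fewer arrays to pass. Without wild-type array 2 the median input excess was 2.54 for m probes and 0.66 for f probes. It was 2.13 and 0.55 without labelled fft3Δ array 1, and 2.32 and 0.56 without labelled fft3Δ array 2. Without wild-type array 1 it was lowest, at 1.72 and 0.46.

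The R of the suffix made little difference. The median mean excess was 2.18 for m and 2.24 for Rm, and 0.58 for f and 0.54 for Rf. By chromosome the m probes had medians of 2.55, 2.29 and 1.77 on chromosomes 1, 2 and 3, and the f probes 0.64, 0.48 and 0.54. The excess of m probes was thus lowest on chromosome 3, where they were densest; these differences between chromosomes were not tested. The brightness ended with the run. Comparison probes 300 bp from the nearest m probe, the next position on the array, had a median input excess of -0.46 (n = 146), those at 600 bp -0.17 and those at 1200 bp 0.067, and comparison probes 300 bp from an f probe had -0.037 (n = 365).

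The brightest member was the m probe at position 2931001 of chromosome 1, with an input excess of 4.32 on wild-type array 1, 4.08 on labelled fft3Δ array 1 and 3.67 on labelled fft3Δ array 2. Its spot was flagged on wild-type array 2, so the fitted mean of 4.096 (SE 0.20, adjusted p = 0.0021, limma) rests on 3 arrays. The m probe at 2928601 in the same run of members had 4.25, 4.20 and 3.46 on those arrays and was flagged likewise. The pair shows that the highest fitted values come in part from members measured without the array on which excesses were smallest. Among members measured on all 4 arrays, the m probe at 1564801 of chromosome 1 had the highest mean, 3.78, from 4.52 and 2.096 in wild type and 4.59 and 3.91 in the arrays labelled fft3Δ. The m probe at 780001 of chromosome 3 followed with 3.71, and the Rm probe at 2941501 of chromosome 1 with 3.64. The remaining 3 of the 8 brightest, at 3994801 of chromosome 1 and at 2324101 and 523201 of chromosome 3, were m or Rm probes at 3.93, 3.91 and 3.63, each without wild-type array 2.

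Some marked probes were dimmer than their surroundings on every array that measured them. The f probe at 1267201 of chromosome 2 was the dimmest, with -5.25 and -2.75 on the wild-type arrays and -5.80 and -5.29 on those labelled fft3Δ (mean -4.77, SE 0.38, adjusted p = 0.0027). The lone m probe at 1119301 of chromosome 1 had -2.49, -2.35 and -2.76, with wild-type array 2 flagged. Other m probes among the 8 dimmest were those at 2014201 of chromosome 2 (Rm, mean -2.31) and 2844601 of chromosome 1 (mean -1.99). The other f members were at 1646101 and 1739401 of chromosome 3, 2149501 of chromosome 2 and 1664401 of chromosome 1, with means of -2.19, -2.14, -2.10 and -1.91. All 8 passed the limma test, at adjusted p of 0.0027 to 0.012. With an intensity trend in the fit, 9 of the 16 members named for high or low input excess lost the call. The letter m thus did not go with a bright input in every case, as 17 of 266 m probes had a fitted mean excess below 0.

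The BrdU ratio of m probes hardly depended on where on the chromosome they lay, whereas that of comparison probes followed the surroundings closely. Where the neighbours had a ratio under -0.5, comparison probes had a median of -0.86 (n = 7979) and m probes 0.51 (n = 41). Where the neighbours had a ratio over 0.5, comparison probes had a median of 0.65 (n = 5452) and m probes 0.77 (n = 68). In between, m probes gave 0.55 and 0.63 beside neighbours at -0.20 and 0.27. The interquartile range of the m probes ran from 0.38 to 0.63 in the late surroundings and from 0.62 to 0.94 in the early ones, and that of the comparison probes from -1.14 to -0.64 and from 0.48 to 0.81. The ratio of the m probes thus rose by 0.257 over a range in which that of their neighbours rose by 1.51. The f probes, with a median of -0.41 beside late-replicating neighbours (n = 37), lay between the comparison and the m probes there. Beside early ones they had 0.79 (n = 93), above both. The level of the m probes depended on the scaling. With loess normalization it was -0.32 beside late neighbours and -0.061 beside early ones, against -0.76 and 0.53 for comparison probes, so the sign turned in both. With normexp background correction it was 0.22 and 0.59, against -0.87 and 0.69, and without wild-type array 2 it was 0.38 and 0.66, against -0.87 and 0.64.

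Across probes, own and neighbouring ratio correlated at 0.93 for comparison probes (n = 36353, slope 1.02), at 0.73 for f probes (n = 408, slope 0.75) and at 0.33 for m probes (n = 266, slope 0.19). These are descriptions: probes on the same array share labelling and scan, neighbours share fragments, and members of a run share neighbours. On single arrays the slope of the m probes was 0.18 and 0.26 in wild type and 0.11 and 0.21 in the arrays labelled fft3Δ, that of the f probes 0.67 to 0.80 and that of the comparison probes 0.99 to 1.03. The order of the 3 kinds was therefore the same on every array. It was also the same in settings chosen after seeing the data: the m slope was 0.30 with loess normalization, 0.16 when wild-type array 2 was left out and 0.25 with normexp background correction, against 1.02 to 1.03 for comparison probes.

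Bright probes without a letter also followed their neighbours. Comparison probes with an input excess of 1 to 2 followed their neighbours with a slope of 1.05 (n = 2287), and those over 2 with a slope of 1.12 (n = 56). The m probes in the same classes had slopes of 0.36 (n = 79) and 0.17 (n = 147). The 40 m probes with an excess under 1 had a slope of 0.72, against 0.74 for the 292 f probes of that class. Next to neighbours under -0.5, comparison probes over 2 had a median ratio of -0.93 (n = 10) and m probes over 2 a median of 0.51 (n = 37). The f probes with an excess of 1 to 2 had a slope of 0.85 (n = 105). Over 2 there were 11 f probes, with a slope of -0.54 and none beside neighbours under -0.5.

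The local excess of the ratio was correspondingly largest where the surroundings replicated late. Its median over m probes was 0.40 and 0.83 on the wild-type arrays and 0.34 and 0.39 on those labelled fft3Δ, and over f probes 0.19 and 0.40 against 0.016 and 0.17. Among comparison probes it lay within 0.0031 of 0 on every array. The interquartile range of the mean over arrays was 0.14 to 0.81 for m probes, -0.0024 to 0.40 for f probes and -0.14 to 0.14 for comparison probes. Called higher were 309 of 674 members (45.8%), of them 161 m and 148 f, and called lower 31 (4.6%; limma, adjusted p under 0.05), against 9.87% and 8.72% of all chromosome probes. Beside neighbours under -0.5, 39 of 41 m probes and 25 of 37 f probes were called higher (95.1% and 67.6%), against 7.48% of comparison probes. Beside neighbours over 0.5, 13 of 68 m probes were called higher (19.1%) and 6 lower (8.82%). Of 93 f probes there, 25 were called higher (26.9%) and 8 lower (8.6%). Comparison probes there were called higher in 9.78% and lower in 10.1%, so the lower calls of the marked probes were near that share. An excess called higher and over 1 was found for 57 members, 52 of them m probes, out of 89 chromosome probes (0.219%) with such a call.

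The direction of the median ratio excess depended on the scaling. With loess normalization within arrays it was -0.15 for m probes and -0.016 for f probes. Of the members, 65 were then called higher and 97 lower, against 4.96% and 3.6% of all chromosome probes. With normexp it was 0.22 and 0.19, with 80 of 674 members higher and 18 lower. Of all chromosome probes, 1.34% were then called higher and 1.33% lower, so fewer probes of any kind were called. The ratio excess was also highest in the class of brightest input in every kind of probe, at 0.30 in comparison probes over 2 (n = 56), 0.49 in f probes (n = 11) and 0.65 in m probes (n = 147), and the part of this in the m and f medians was not tested. Wild-type array 2, with the narrowest input, had the highest ratio excess of both kinds. Without that array the median ratio excess was 0.36 for m probes and 0.14 for f probes, the lowest values with any array left out. Without wild-type array 1 it was 0.55 and 0.27. Without labelled fft3Δ array 1 it was 0.48 and 0.25. Without labelled fft3Δ array 2 it was 0.45 and 0.17.

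Of the 12 longest runs, 5 held m probes alone, in surroundings that ranged from late to early. The run of 16 from 3362101 to 3366601 of chromosome 1, spanning 4560 bp, lay among neighbours at -1.32. Its median own ratio was 0.42 on wild-type array 1, 0.98 on wild-type array 2, and 0.55 and 0.46 on labelled fft3Δ arrays 1 and 2, while its input excess was 3.09, 1.53, 3.17 and 2.89. All 16 probes were called higher in input and in ratio, against 24.2% and 9.87% of all chromosome probes. This run held the 5 members with the highest ratio excess on the array, at 3363001, 3362401, 3362101, 3362701 and 3363901, with means of 2.54, 2.43, 2.41, 2.30 and 2.23 (adjusted p of 7.9e-12 to 2.6e-11, limma). For the first of these, an Rm probe, the values were 2.56 and 2.39 in wild type and 2.82 and 2.39 in the arrays labelled fft3Δ, so the groups overlapped. Within the run of 16, own ratios on wild-type array 1 ranged from 0.13 to 0.77 and inputs from 2.40 to 3.70, with median inputs of 3.29 for m and 3.23 for Rm probes.

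The run of 12 m probes from 5191201 to 5195401 of chromosome 1 lay among neighbours at -0.78 and had own ratios of 0.52 and 0.97 in wild type and 0.53 and 0.43 in the arrays labelled fft3Δ. The run of 10 from 777901 to 781801 of chromosome 3 lay at -0.12 and had 0.54 and 1.001 against 0.72 and 0.495. The run of 11 from 3991801 to 3996301 of chromosome 1 lay in early-replicating DNA at 0.78 and had 0.497 and 0.95 against 0.59 and 0.505. The medians of these 4 runs over the mean of the arrays were 0.54, 0.60, 0.65 and 0.69, where the neighbours ranged from -1.32 to 0.78. The remaining run of m probes alone, the 14 from 689701 to 694501 of chromosome 2, had a higher median of 0.98 beside neighbours at 0.67, and its arrays are given below. The 5 runs spanned between 3960 and 4860 bp. Over all 14 runs of m probes alone (107 probes) the median own ratio was 0.61, with a range of -0.0083 to 0.99.

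The longest runs of f probes alone had ratios of 0.24 and 0.35. The run of 19 f probes from 4901101 to 4906501 of chromosome 1, the longest of all, had a median input excess of 0.63 and its own ratio lay beside neighbours at 0.063. The run of 15 f probes from 4519201 to 4525201 of the same chromosome had an input excess of 0.56, and its neighbours had a ratio of 0.33. Of their 34 probes, 19 were called higher in input, 8 higher in ratio and 4 lower in ratio. Over all chromosome probes these shares were 24.2%, 9.87% and 8.72%, so the lower calls were near that share. The 5 mixed runs among the 12 longest were all on chromosome 3, the chromosome with 23 of the 25 annotated wtf genes. They lay at 2018101 to 2022001, 218701 to 222901, 1805701 to 1809601, 1580101 to 1582801 and 2145901 to 2148901, with 10 to 13 members. Their median input excess was 1.05, 1.17, 1.37, 1.36 and 0.041, and their own ratios were 0.63 to 0.81 beside neighbours at 0.18 to 0.61.

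A few members had a ratio below that of their surroundings. The f probe at 4908001 of chromosome 1 had a ratio excess of -1.79 and -0.74 in wild type and -0.95 and -1.31 in the arrays labelled fft3Δ (mean -1.197, SE 0.13, adjusted p = 7.0e-06, limma), together with an input excess of 3.37. The Rf probe beside it, at 4908301, had a mean of -0.65. On chromosome 3 the Rf probes at 276001 and 276601 had -0.72 and -0.62, and the Rm probe at 1863001, without wild-type array 2, had -0.601. All 5 were brighter than their neighbours, by 1.03 to 3.37 in the input.

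The arrays labelled fft3Δ and wild type were then compared for the members, as part of a fit over all 41251 chromosome probes. No member and no other probe passed an adjusted p of 0.05 in the ratio or the input (limma, 0% of probes called). At an unadjusted p under 0.05 there were 76 members in the ratio (2549 of all probes) and 1 in the input (50 of all probes). With the series number as a block, 2 of 679 members were called higher in ratio and 10 lower. Among all 41251 probes, 665 were called higher and 35 lower (1.61% and 0.0848%). Most calls were thus lower among the members and higher among all probes. The input and both excesses still gave 0 calls. Same-numbered arrays also had the same number of scan passes, 1 in series 1 and 2 in series 2. Without the block, the local excesses gave 0 calls too (0% of 40717 probes). At an unadjusted p under 0.05 (limma), 102 of 674 members were found in the ratio excess (3079 of all 40717 probes). In the input excess there were 0 members (62 of all probes). The median difference in ratio, labelled fft3Δ minus wild type, was -0.20 for f probes, -0.18 for m probes and -0.033 for comparison probes. The lowest adjusted p among members was 0.39. Without wild-type array 1, which leaves wild-type array 2 alone in its group, 65 members were called lower in ratio and 291 higher in input, where 1.96% and 11.6% of all probes were called so.

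Within series, the 2 kinds of probe differed. The f probes had a median ratio difference of -0.14 in series 1 and -0.24 in series 2, against -0.022 and -0.049 for comparison probes. In the m probes it was 0.071 in series 1 and -0.47 in series 2, with opposite signs. The input of the m probes differed by -0.052 in series 1 and by 1.24 in series 2, where the narrow input of wild-type array 2 enters, and that of the f probes by 0.048 and 0.36. Set against wild-type array 1 instead, labelled fft3Δ array 2 differed in ratio by 0.015 for m probes and by -0.033 for f probes. The series 2 difference was thus present against wild-type array 2 and absent against wild-type array 1, and genotype and array cannot be told apart in it. Both arrays labelled fft3Δ lay below both wild-type arrays in ratio for 139 of 390 f probes (35.6%) and 55 of 235 m probes (23.4%) measured on all arrays, against 19.8% of all chromosome probes. They lay above for 31 and 12 (7.95% and 5.11%), against 15.4%.

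The single members with the strongest differences did not pass the test without the series number as a block, and 6 of the 10 named here passed with it: on chromosome 2 the probes at 1267201, 690901, 692101 and 690301, on chromosome 1 those at 3301501 and 4282501 (adjusted p of 0.00029 to 0.046, limma). The same 6 passed without wild-type array 1, 2 of them without wild-type array 2 and 1 without labelled fft3Δ array 2. The values that follow are from the fit without the block. The dim f probe at 1267201 of chromosome 2 had ratios of 0.022 and 0.49 in wild type and 1.91 and 1.02 in the arrays labelled fft3Δ (difference 1.21, SE 0.28, adjusted p = 0.39, limma). Its input was -3.84 and -2.72 in wild type and -4.44 and -4.16 in the others, so the groups separated in both measures at a very low input. The Rm probe at 3301501 of chromosome 1 had ratios of 0.19 and 0.39 against 1.42 and 0.95 (difference 0.90, adjusted p = 0.44). The probe at 4135501 of chromosome 1 (f, without wild-type array 2) and those at 521101 (f) and 2014201 (Rm) of chromosome 2 had differences of 0.87, 0.70 and 0.65. The lowest moderated t values belonged to the m probes at 690901, 692101, 690301 and 671701 of chromosome 2 (-0.75, -0.76, -0.80 and -0.63) and the f probe at 4282501 of chromosome 1 (-0.72), at adjusted p of 0.66 to 0.69.

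In the input, none of the named members came near the threshold (adjusted p = 0.99 each, limma), but all 10 passed it without wild-type array 1. The Rf probe at 4105801 of chromosome 1 had the highest t, with inputs of 0.75 and 0.28 in wild type and 1.34 and 1.295 in the arrays labelled fft3Δ (difference 0.80). The others were at 627601 of chromosome 2 (0.71) and at 4519201, 4091701 and 2909701 of chromosome 1 (0.67, 1.01 and 0.95), all f or Rf. The lowest were the f probe at 1267201 of chromosome 2 (-1.02), the m probes at 489301 and 1895101 of chromosome 3 (-1.10 and -0.91), the Rm probe at 2014201 of chromosome 2 (-1.21) and the Rf probe at 5148301 of chromosome 1 (-0.87). Wild-type array 2 had the lowest input of the 4 arrays in each of the first 5 and the highest in each of the last 5. For 1267201 the input difference became 0.42 when the input of all arrays was rescaled to the same spread, with the sign turned.

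Of the 5 members with the lowest t in the ratio, 3 came from a single group of m probes. This group, the run of 14 from 689701 to 694501 of chromosome 2 and the 4 m probes after it up to 697801, was described further because of these values. Its 14-probe run had own ratios of 1.03 and 1.65 in wild type and 0.37 and 0.89 in the arrays labelled fft3Δ, beside neighbours at 0.67, and was thus higher than the other long m runs on 3 arrays and lower on labelled fft3Δ array 1. Over the 18 probes, labelled fft3Δ array 1 differed from wild-type array 1 by a median of -0.68 in ratio, with a range of -0.82 to -0.58, and by 0.37 in input, with a range of 0.24 to 0.43. The other 253 m probes had medians of 0.093 and -0.062 for the same differences. They include the m probe at 698101, which forms a pair with 697801 but was not taken into the group. The ratio differences within that pair were -0.82 and -0.71, inside the range of the group. In series 2 the ratio difference of the group was -0.67 over 16 probes. Labelled fft3Δ array 2 against wild-type array 1 gave -0.080, within a range of -0.24 to 0.051, so the arrays labelled fft3Δ did not share the lower ratio relative to wild-type array 1. No test was made on this group, which was chosen for its values.

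Within the group, the Rm probes had a higher median input than the m probes on all 4 arrays, without overlap on 3 of them. The median input was 2.94 for Rm against 2.53 for m on wild-type array 1, 3.34 against 2.92 on labelled fft3Δ array 1, 2.97 against 2.13 on labelled fft3Δ array 2, and 0.94 against 0.76 on wild-type array 2, with 9 probes of each kind (8 on wild-type array 2). On wild-type array 1 every Rm probe (2.69 to 3.20) lay above every m probe (1.75 to 2.67). The kinds overlapped on wild-type array 2, where Rm ranged from 0.76 to 1.12 and m from 0.46 to 0.96. The other 4 long m runs went the other way on wild-type array 1, with a higher median input for m than for Rm probes. On chromosome 1 these medians were 3.29 against 3.23, 3.34 against 2.64 and 3.37 against 3.15, and on chromosome 3 they were 3.43 against 3.17.

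Values overlapped across the limits that define the arms. The nearest marked probe inside each of the 12 limits had a median input excess of 0.94 (range -1.24 to 3.88) and the nearest outside 0.43 (range -1.41 to 3.23). Marked probes outside the arms often had too few neighbours without a letter. Where an excess could be had, it was 1.985 in the input for 41 of 165 m probes and 1.08 for 268 of 664 f probes.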

How the data were processed

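The labels' protocols give sonication to 500-1000 bp, an anti-BrdU pull-down, random-primed amplification, and Cy5 for the pull-down and Cy3 for the input. Per the file headers, the deposited intensity values are processed signals of Agilent Feature Extraction (12.0, but 11.5 for wild-type array 2), corrected there for background and dye. The deposited log10 ratio column, computed by that software from the processed signals per the file headers, served to check direction. The linear ratio deposited by the authors in the series-wide file equalled processed Cy5 over Cy3 to within 0.0132 in log2, uncentred, with column medians of 0.995 to 1.07. Deposited flag columns (unit other) gave spot quality.

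Values were put on the log2 scale and centred on each array's median, without loess or quantile steps. Control spots and spots with a non-uniformity flag were left out. Each probe was fitted with lmFit and eBayes of limma 3.58.1 (R 4.3.3, files read with the package data.table, version 1.17.8), two-sided, with group means as the terms and Benjamini-Hochberg adjustment over all chromosome probes. Excesses were tested as the mean of both groups against 0, and the steps were tested on simulated data. The named members are the 8 highest and 8 lowest in input excess, the 5 highest and 5 lowest in ratio excess and in moderated t for both genotype differences, and the 12 longest runs. The members and lists were chosen with earlier results of these data known. Medians over members carry no p. Neighbour distance, background correction, normalization, flags, spread of the input, trend, replicate block and each array were varied. No probe sequence is given, and no coordinates were converted. Repeated stretches were counted in the reference with Python 3.11.15 and numpy 2.4.6.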

Additional observations from a re-analysis of the deposited data

How the results depend on the processing

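The values for single named members repeat the same members over the alternative runs. Of these values, 220 of 229 for input excess and all 146 for ratio excess kept their direction and their side of the threshold. The other 9 all came from the fit with an intensity trend, in which 9 of the members named for input excess lost the call and 7 kept it. For the genotype difference, 94 of 109 such values in ratio and 99 of 110 in input stayed on their side; 15 and 10 gained the call, with the block or an array left out, and 1 in input reversed. With neighbours within 2 kb, which leaves some members without 5 neighbours, 195 members were called higher in ratio excess and 223 higher and over 1 in input excess. With normexp on median signals, since the files used hold no mean signal, the median input excess of the members was 1.45 (1.04 as reported), and 80 were called higher and 18 lower in ratio excess. With loess for the ratio (and quantile for the input) the median ratio excess turned from 0.28 to -0.058, with 65 higher and 97 lower. Of all chromosome probes, 1.34% were called higher and 1.33% lower in ratio excess with normexp, and 4.96% and 3.6% with loess. With neighbours within 2 kb, 7.71% were called higher. The cause of these shifts was not tested. Among f probes alone the input excess had a median of 0.56, 216 called higher and 116 higher and over 1, with 148 higher in ratio excess; among m probes alone these were 2.23, 240, 227 and 161, with 10 lower in input and 7 lower in ratio. The input difference of the f probe at 1267201 of chromosome 2 reversed to 0.42 with the input rescaled to a common spread.

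Leaving out each array in turn, members called higher numbered 348 to 483 and lower 37 to 106 for input excess, and 207 to 354 and 18 to 44 for ratio excess. Members higher and over 1 in input excess numbered 263 to 370. Of all chromosome probes, 8.94% to 34.5% were then called higher and 10.3% to 34% lower in input excess. In ratio excess these shares were 3.33% to 10.9% and 2.42% to 9.91%. The ranges over members thus include a change in calling over all probes. For the genotype difference 0 to 3 members were called higher and 0 to 65 lower in ratio, 0 to 291 and 0 to 57 in input, 0 to 258 and 0 to 66 in input excess, and 0 to 5 and 0 to 86 in ratio excess. The highest counts of the genotype difference came without wild-type array 1, which leaves wild-type array 2 alone in its group and assumes that it varies like the other group. The shares of all chromosome probes called in ratio, input and ratio excess were also highest without wild-type array 1. These counts are therefore not specific to the members. Same-numbered arrays share the series number and the number of scan passes, and the labels state no shared culture or day. Deviations from group means correlated at 0.213 in ratio and 0.482 in input between same-numbered arrays. With 2 arrays per group, series 1 and series 2 must give the same correlation, so each of these is a single value. With the replicate block, 2 members were called higher and 10 lower in ratio (665 higher and 35 lower of all chromosome probes), and 0 in input and in both excesses.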

Other observations

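Of the comparison probes, 2343 had a mean input excess over 1 although their names carry neither f nor m. Within 1 kb of a marked probe lay 101 of them (4.31%), against 4.03% of all comparison probes. In the Cy5 channel alone, the median local excess of the m probes was 2.98 and 1.88 in wild type and 2.87 and 2.66 in the arrays labelled fft3Δ, and that of the f probes 0.81 and 0.59 against 0.72 and 0.76.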
